A study of Homo sapiens with 28 samples.

Results

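The regions described here are the neighbourhoods of 4 genes that code for cohesin, its loader and its partner CTCF, in the human cell line GP5d, which was established from a colon adenocarcinoma. They hold all peaks that overlapped the 50 kb on either side of a given hg18 position of RAD21 (chromosome 8, 117956000), SMC3 (chromosome 10, 112317000), NIPBL (chromosome 5, 36913000) or CTCF (chromosome 16, 66154000). Of 393268 peaks in 22 lists, 109 lay in these windows. There were 57 of 235159 under control siRNA and 52 of 158109 under RAD21 siRNA. A peak is a place where fragments of cross-linked DNA, recovered with an antibody and sequenced (ChIP-seq), pile up. Each list came from 1 library of cells transfected with 50 nM of an siRNA, either a neutral control or one against RAD21, and harvested after 72 hours. The 11 targets were the cohesin subunits RAD21 and SMC3, NIPBL, CTCF, H3K4me1 and the factors HNF4A, KLF5, JUND, MYC, REST and RFX2. With 1 library per target and siRNA no test between the siRNAs was possible, and all differences below are descriptions of these libraries.

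Cohesin is a ring-shaped complex that holds sister chromatids together and extrudes loops of chromatin. SMC3 is a structural arm of the ring, RAD21 is the kleisin that closes it, and NIPBL loads it onto DNA and drives extrusion. CTCF is a zinc finger protein that halts extrusion when cohesin meets it in the right orientation, so that cohesin and CTCF are commonly found at the same places. NIPBL is often found at active promoters, away from the places where cohesin comes to rest. The mark H3K4me1, monomethylated lysine 4 of histone H3, lies at enhancers and at the flanks of promoters. The libraries are called H3K4me1 after their titles. The labels' antibody number for them is, from general knowledge, one for histone H3 of any kind, so the values may not be specific to the mark.

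RAD21 had no entry among the RefSeq promoters used, so the promoters of the other 3 genes are shown. Each is the stretch of 250 bases before the gene start, from RefSeq on build GRCh38.p14, and capitals mark matches to the motifs searched.
SMC3 promoter, chr10:110567445-110567694, plus strand: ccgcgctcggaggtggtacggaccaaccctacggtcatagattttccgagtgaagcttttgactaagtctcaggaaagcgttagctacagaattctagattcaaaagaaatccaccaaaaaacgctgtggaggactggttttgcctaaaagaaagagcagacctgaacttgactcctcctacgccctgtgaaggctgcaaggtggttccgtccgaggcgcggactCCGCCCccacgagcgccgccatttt
NIPBL promoter, chr5:36876519-36876768, plus strand: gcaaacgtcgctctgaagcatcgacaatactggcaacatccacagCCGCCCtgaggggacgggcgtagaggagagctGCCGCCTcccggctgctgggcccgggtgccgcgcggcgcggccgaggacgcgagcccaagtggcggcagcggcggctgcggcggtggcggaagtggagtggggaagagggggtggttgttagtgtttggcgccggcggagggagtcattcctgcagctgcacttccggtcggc
CTCF promoter, chr16:67562276-67562525, plus strand: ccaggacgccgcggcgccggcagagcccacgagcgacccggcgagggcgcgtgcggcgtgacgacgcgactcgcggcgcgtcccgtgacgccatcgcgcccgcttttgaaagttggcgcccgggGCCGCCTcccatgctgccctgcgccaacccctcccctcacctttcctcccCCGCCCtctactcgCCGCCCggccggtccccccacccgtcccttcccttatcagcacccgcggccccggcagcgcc
The peaks are on hg18, so no peak was placed on these letters. RefSeq lists the divergent noncoding genes NIPBL-DT and CTCF-DT beside NIPBL and CTCF. The motifs, searched on both strands, were CACGTG (the E-box read by MYC), TGANTCA and TGACGTCA (sites of the AP-1 and CRE type, read by JUND dimers), GGGCGG (the GC box read by SP and KLF proteins) and AGGNGGC (part of the CTCF core). No matches to different motifs overlapped in the 3 promoters, and all matches read as the reverse complement on the strand printed. The GC box occurred once each in SMC3 (from base 226, counted from the 5′ end as printed) and NIPBL (from base 46). The CTCF promoter held it from base 175 and from base 189. AGGNGGC occurred at base 78 of the NIPBL promoter and at base 125 of the CTCF promoter. None of the 3 promoters held an E-box, AP-1 or CRE match. Over 35116 RefSeq promoters of this length, 42.6% held the GC box, 31.5% AGGNGGC, 6.34% CACGTG, 6.57% TGANTCA and 1.65% TGACGTCA. The G and C content was 52.8% for SMC3, 70.0% for NIPBL and 76.8% for CTCF, beside a median of 58.0% over all these promoters. CpG dinucleotides numbered 17, 28 and 39, beside a median of 11.

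The windows differed in how much they held. With control siRNA the SMC3 window had 23 peaks, and with RAD21 siRNA 17. The CTCF window had 18 and 24. The RAD21 window had 11 and 5, and the NIPBL window 5 and 6. Of the 11 targets, 9 had a peak in at least 1 window. REST, which represses neuronal genes, and RFX2, which activates genes of the cilium, had none under either siRNA. At the average density of their lists, the 4 windows would hold 0.592 (control) and 0.634 (RAD21 siRNA) REST peaks, and 0.302 and 0.168 RFX2 peaks. CTCF had 16 control peaks where its list density gives 6.40, RAD21 13 where it gives 5.27 and SMC3 11 where it gives 5.64. H3K4me1 had 11 where it gives 8.89, MYC 3 where it gives 1.98 and KLF5 2 where it gives 1.13. NIPBL had 1 where its density gives 1.70, HNF4A 0 where it gives 1.62 and JUND 0 where it gives 0.680. In the RAD21 siRNA lists, CTCF had 13 peaks (4.68 by density), RAD21 7 (2.87), SMC3 4 (1.83), NIPBL 2 (0.883) and H3K4me1 14 (7.79). JUND had 5 (1.79), MYC 4 (1.06), HNF4A 3 (1.03) and KLF5 0 (0.259). The list density takes peaks as spread evenly over the genome, and windows at other genes were not counted. Numbers above it therefore cannot be called particular to the 4 genes. The map of the windows shows that most CTCF and cohesin peaks stood in common places away from the gene starts, whereas NIPBL was found at gene starts alone.

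**Figure D1:**
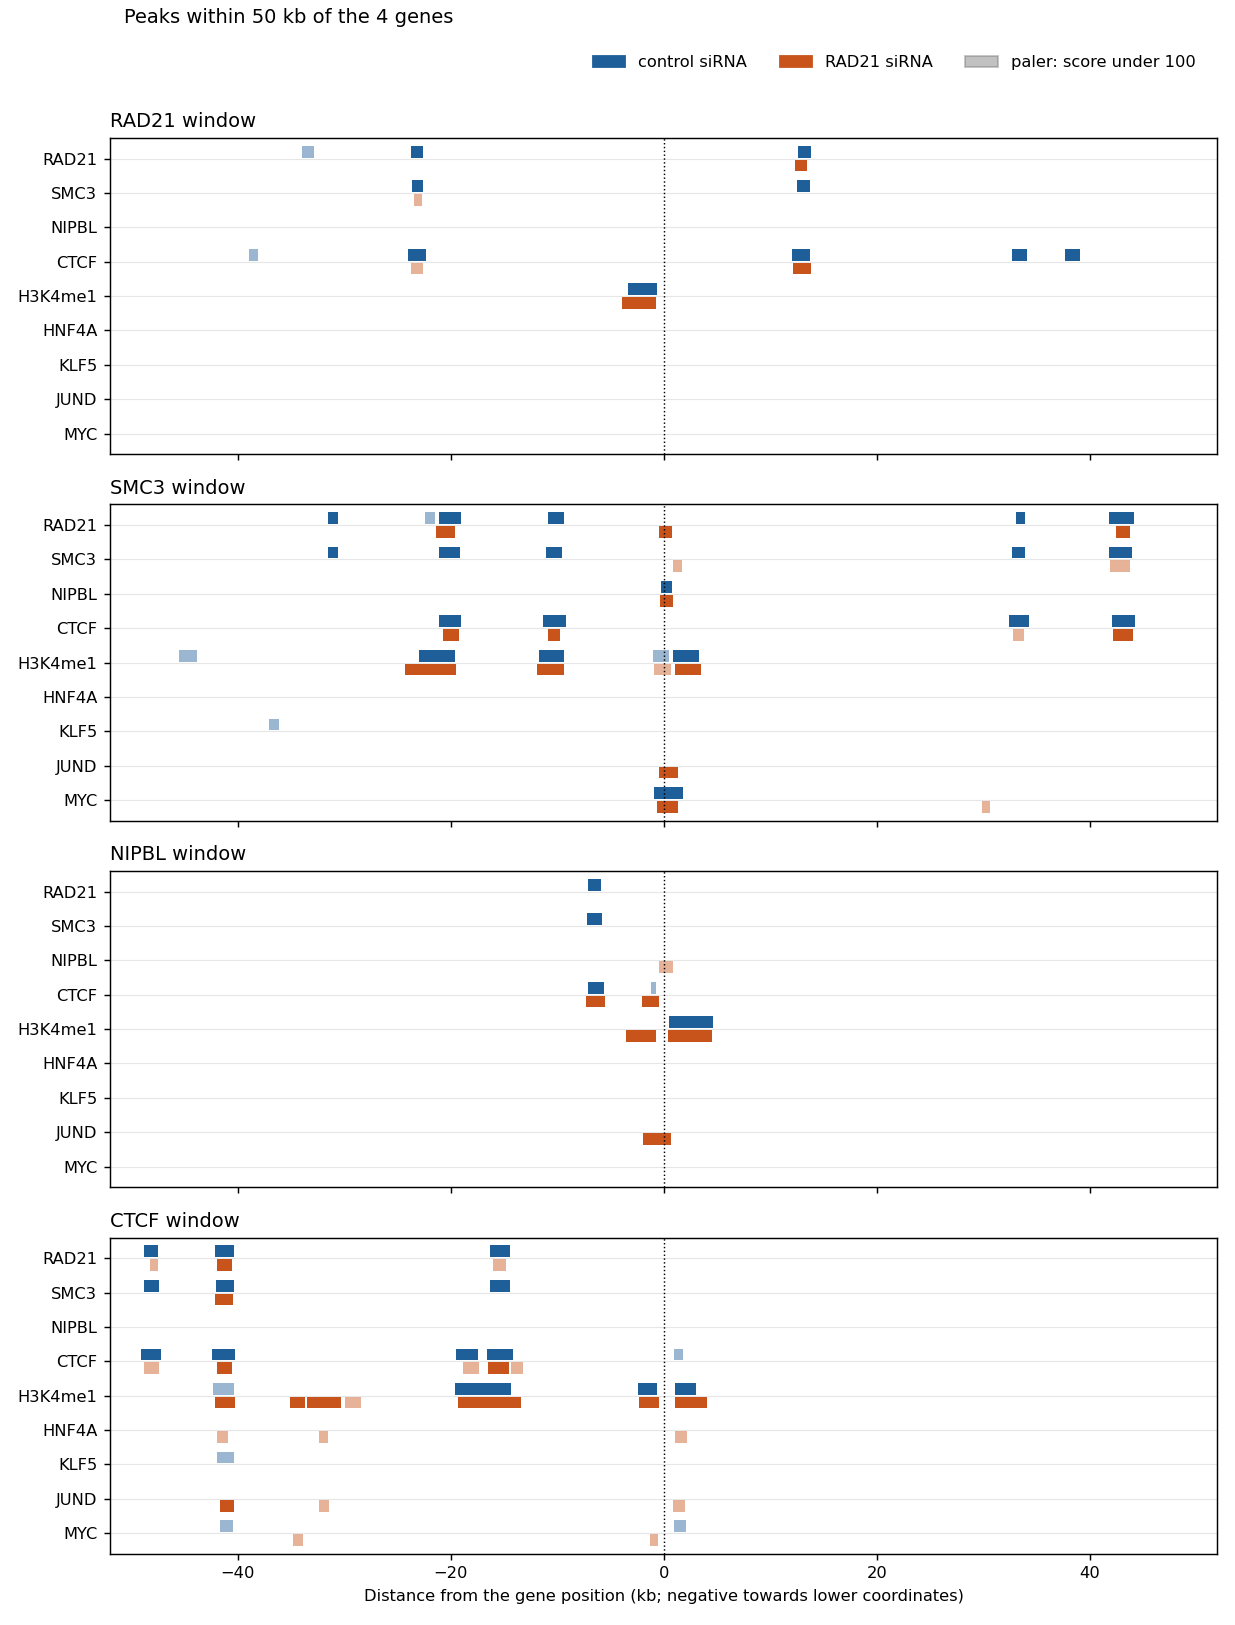
Peaks of the 9 targets found within 50 kb of the 4 genes, as bars from start to end against the distance from the gene position in kb, blue for control siRNA and orange for RAD21 siRNA. Paler bars have a score under 100, and blue bars of CTCF, RAD21 and SMC3 stand above one another at 10 places.

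Depth moved with the siRNA. The rabbit IgG libraries used as background held 8916252 tags (control siRNA) and 4101535 tags (RAD21 siRNA). CTCF and RFX2 were instead called against goat IgG libraries of 3914714 tags (control siRNA) and 3293704 tags (RAD21 siRNA). The background of CTCF thus differed from that of RAD21 and SMC3. ChIP libraries held 3629966 to 19926326 tags after filtering under control siRNA (median 9603820) and 1747770 to 15263937 under RAD21 siRNA (median 7006171), and 9 of the 11 targets had fewer under RAD21 siRNA. The ratio of RAD21 siRNA to control was 0.615 for RAD21, 0.531 for SMC3, 0.352 for NIPBL, 0.346 for CTCF and 0.528 for H3K4me1, but 2.02 for JUND and 1.02 for MYC. The part of depth in what follows was not tested. Peaks are described by the authors' own values. The score is −10 × log10 of the MACS p, with 50 as the lowest value kept. The fold enrichment is a ratio over the local background, and the false discovery rate (FDR) is in percent. Scores, ranks and FDRs of 2 lists are set side by side, which does not measure a change between them.

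A control peak was called found again when a peak of the same target under RAD21 siRNA overlapped it by at least 1 bp. CTCF was found again at 12 of its 16 control peaks in the windows, 75.0% (95% Clopper-Pearson interval 47.6 to 92.7, counting error only), beside 63.1% over its whole list. RAD21 was found again at 6 of 13, 46.2% (19.2 to 74.9), beside 46.6%. SMC3 was found again at 3 of 11, 27.3% (6.02 to 61.0), beside 28.4%. H3K4me1 was found again at 10 of 11, 90.9% (58.7 to 99.8), beside 74.3%. With summits required to lie within 250 bp, H3K4me1 was found again at 6 of 11, 54.5%. The SMC3 share was 16.7% in windows of 25 kb on each side and 30.0% in windows of 100 kb. It was 18.2% with summits within 250 bp and 27.3% with an overlap of at least 50% of the control peak. It was 9.09% with an FDR under 5% or a score of at least 100 required, and 1 of 5 with lists trimmed to equal numbers. Whole-list shares were not computed under the summit, FDR, score or trimming rules. The H3K4me1 and SMC3 values under those rules thus cannot be set beside 74.3% and 28.4%. In the main count, each whole-list share lay inside the interval of its windows, so the shares of the windows are not told apart from those of the lists at these numbers. The same held at like strength: whole-list shares averaged over the members' score classes (50 to 100, 100 to 200, 200 to 400, and 400 and above) were 70.0% for CTCF, 52.5% for RAD21, 35.1% for SMC3 and 73.1% for H3K4me1.

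By score class, the members of CTCF and RAD21 were found again most often in the highest class, and those of SMC3 showed no such order. All 9 control CTCF peaks with a score of 400 or more were found again, as were all 5 of RAD21, whose whole-list shares in that class were 93.6% and 88.7%. SMC3 was found again at 1 of 3 in that class, beside 68.1% in its list. From 200 to 400, RAD21 was found again at 0 of 2 and SMC3 at 1 of 5, beside 55.9% and 29.9%. From 100 to 200, RAD21 was found again at 1 of 4 and SMC3 at 1 of 3, beside 26.7% and 10.7%. From 50 to 100, RAD21 was found again at 0 of 2, beside 9.78%, and SMC3 had no member. The single NIPBL control peak, with a score of 1038, was found again, beside 17.4% over its list and 89.2% of the list's peaks with scores of 400 or more. KLF5, a zinc finger factor of the intestinal crypt, had 2 control peaks and neither was found again, beside 10.2%. MYC, a growth regulator, had 1 of 3 found again, beside 28.9%.

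**Figure D2:**
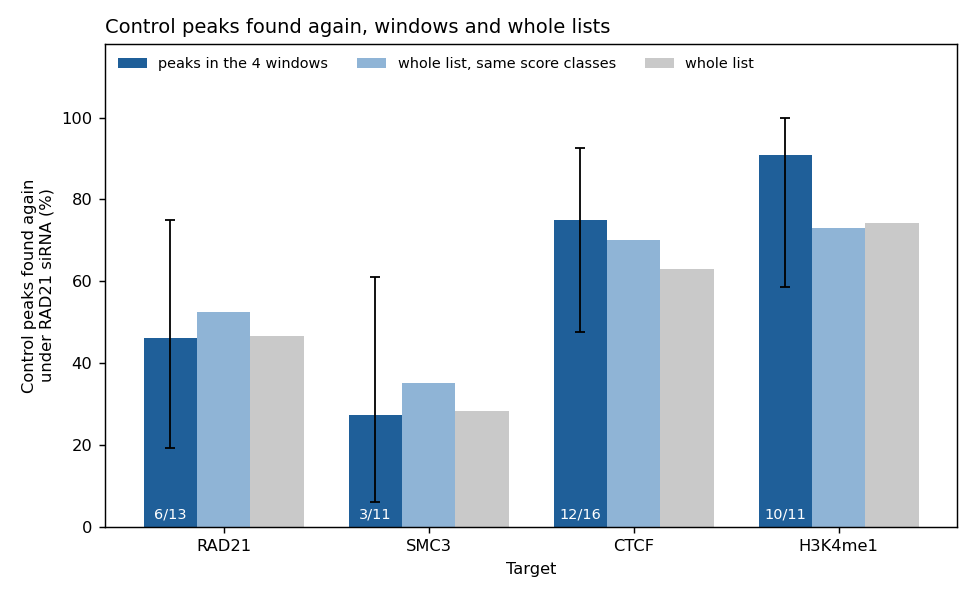
Percent of control peaks found again under RAD21 siRNA for the 4 targets with at least 10 control peaks in the windows, with numbers in the bars. Dark bars are the windows with 95% Clopper-Pearson intervals, light blue bars the whole list weighted to the same score classes and grey bars the whole list, and every light blue and grey bar ends inside the interval beside it.

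Peaks under RAD21 siRNA with no overlapping control peak of their target numbered 18 of 52. CTCF had none of 13, beside 12.9% over its list, RAD21 1 of 7 (13.7%) and SMC3 1 of 4 (11.7%). NIPBL had 1 of 2 (66.3%) and H3K4me1 4 of 14 (17.7%). JUND, which pairs with FOS proteins in AP-1, had 5 of 5 (86.7%), HNF4A, a nuclear receptor of intestinal epithelium, 3 of 3 (47.3%) and MYC 3 of 4 (45.1%). Of these 18 peaks, 11 lay in the CTCF window, 4 in the SMC3 window and 3 in the NIPBL window. The RAD21 window had none.

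At the gene starts, taken as peaks within 1 kb of the given positions, the 4 genes were unlike each other. Of 44 pairs of target and gene, 9 had a peak at the start under control siRNA and 14 under RAD21 siRNA. Starts of other genes were not counted, so these numbers cannot be called particular to the 4 genes. JUND was at the SMC3, NIPBL and CTCF starts under RAD21 siRNA alone. Its RAD21 siRNA library had 2.02 times the control's tags, and 86.7% of that list had no control peak. Every one of the 4 starts carried H3K4me1 under both siRNAs, and no start had RAD21 or SMC3 under control siRNA. With a distance of 500 bp the numbers were 4 under control siRNA and 11 under RAD21 siRNA. With an FDR under 5% required they were 6 and 7, so most of the difference was in peaks of higher FDR. The positions are rounded to 1 kb, and the distance matters at CTCF. Peaks that began at 66154919 (JUND), 66154929 (CTCF) and 66154931 (MYC) counted as at the start, and those that began at 66155029 (H3K4me1) and 66155056 (HNF4A) did not. At its own gene, each of RAD21, SMC3 and CTCF had a control peak in the window and NIPBL had none. Under RAD21 siRNA all 4 proteins had one. With an FDR under 5% required, 3 had one under control siRNA and 2 under RAD21 siRNA.

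**Figure D3:**
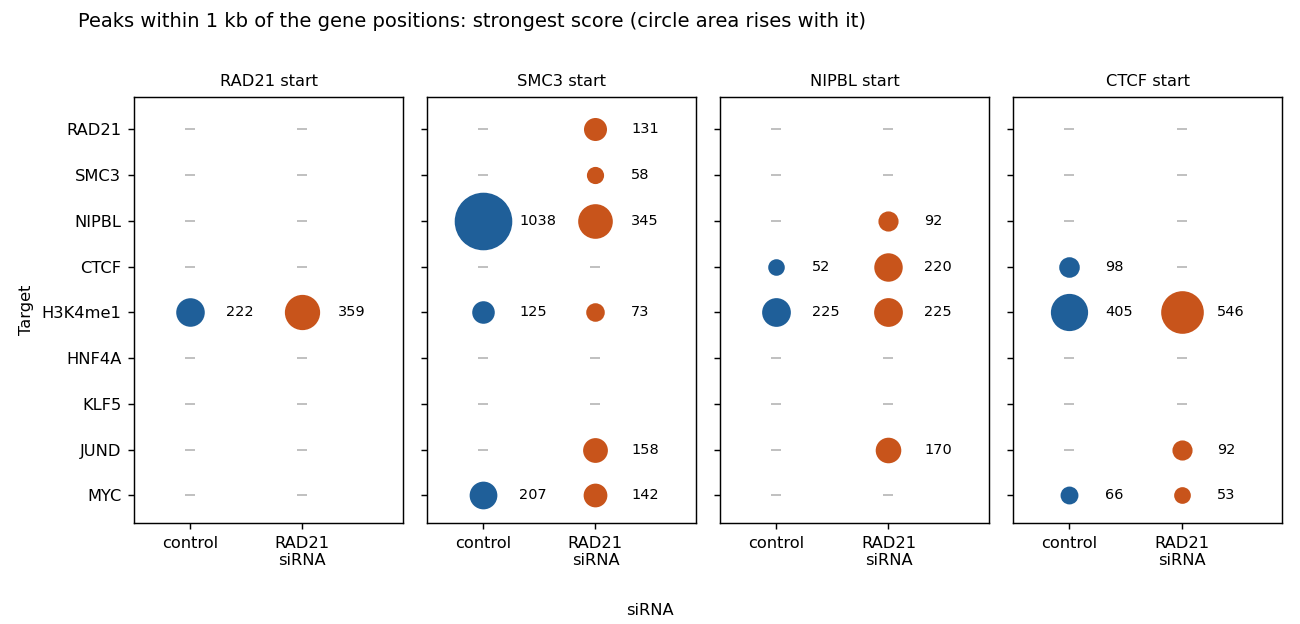
Score of the strongest peak within 1 kb of each gene position, by target (vertical axis) and siRNA (horizontal axis), with the score printed beside each circle and a dash where there was no peak. NIPBL at the SMC3 start under control siRNA is the largest circle, at 1038, and the RAD21 start holds H3K4me1 alone.

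The RAD21 gene, on chromosome 8 between UTP23 and AARD, is the target of the siRNA. RAD21 is transcribed towards lower coordinates. RAD21 RNA was not analysed here, so these lists do not measure the knockdown. Its start carried H3K4me1 from 117952615 to 117955368 under control siRNA (117 tags, score 222) and from 117952122 to 117955281 under RAD21 siRNA (82 tags, score 359). Both summits lay 1.8 to 2.0 kb below the position, on the side of the gene body. None of the other 10 targets, cohesin and NIPBL among them, had a peak at the RAD21 start under either siRNA.

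RAD21 protein at its own gene had 3 control peaks, at 33.4 and 23.2 kb below the position and 13.1 kb above it. Their scores were 66.0, 107 and 196, ranks 31400, 24835 and 18388 of 36204, so all were in the weaker part of the list or at its middle. Only the third was found again, with 92 tags in the control list and 24 in the other (score 123, rank 8502 of 19752). That site, on chromosome 8 from 117968051 to 117969862, also held the strongest CTCF peak of the window, with 140 tags, a score of 1244 and a fold enrichment of 68.9. CTCF was there under RAD21 siRNA with 38 tags and a score of 318. SMC3 was there under control siRNA (86 tags, score 140) and not under RAD21 siRNA.

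The site 23.2 kb below the RAD21 position showed the other pairing. CTCF (score 386), SMC3 (164) and RAD21 (107) had control peaks with summits within 36 bp of each other. Under RAD21 siRNA, CTCF had a score of 90.3 and SMC3 one of 55.3 with an FDR of 14.7%, while RAD21 had no peak. Of 5 CTCF peaks in the window, the 3 that stood without cohesin were not found again. They lay 38.7 kb below the position (score 72.6) and 33.6 and 38.2 kb above it (scores 125 and 264).

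The SMC3 gene lies on chromosome 10 between DUSP5 and RBM20 and is transcribed towards higher coordinates. Its start held the strongest NIPBL peak of the 4 windows. Under control siRNA NIPBL had 253 tags from 112316699 to 112317733, a score of 1038 and a fold enrichment of 18.7, which ranked 26 of 11694 and so in the top 0.222% of its list. Under RAD21 siRNA NIPBL had 70 tags from 112316662 to 112317863 and a score of 345, rank 128 of 6068. The summits lay 321 and 310 bp above the position. The control peak had an FDR of 7.14%, the lowest in a list where none was under 5%, and the RAD21 siRNA peak had one of 0.22%.

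MYC also sat at the SMC3 start under both siRNAs, with 123 tags, a score of 207 and a summit 8 bp above the position under control siRNA. Under RAD21 siRNA it had 60 tags, a score of 142, an FDR of 7.81% and a summit 626 bp above. At this start 3 further targets had peaks under RAD21 siRNA alone. RAD21 had 47 tags and a score of 131 with its summit 361 bp above the position, beside that of NIPBL at 310 bp. JUND had 77 tags and a score of 158 (FDR 6.19%), and SMC3 had 14 tags and a score of 58.4 (FDR 14.7%) at 1232 bp. In the RAD21 list, 5.25% of siRNA peaks with scores of 100 to 200 had no control peak. Over all scores, 1 of the 7 RAD21 siRNA peaks of the windows had none, beside 13.7% of its list. In the classes of the other peaks, the share was 84.2% for JUND (100 to 200) and 17.8% for SMC3 (50 to 100). H3K4me1 lay on both sides, with control summits 245 bp below and 1957 bp above.

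SMC3 protein at its own gene had 5 control peaks, none at the start. They lay 31.2, 19.9 and 10.1 kb below the position and 33.5 and 43.3 kb above it, with scores of 255, 383, 161, 262 and 300. At the last, SMC3 was found again by overlap (124 tags under control siRNA, 39 under RAD21 siRNA, score 59.5, FDR 14.7%), but the summits were 664 bp apart. None of the other 4 was found again. RAD21 had control peaks at all 5 of these places, with scores of 130, 434, 182, 228 and 530, and was found again at 19.9 and 43.3 kb, with scores of 122 and 193. CTCF shared 4 of the 5 and was found again at each, with control scores of 516 to 865 and RAD21 siRNA scores of 71.0 to 194. The place 31.2 kb below the start had RAD21 and SMC3 without CTCF, and no target had a peak there under RAD21 siRNA. RAD21 had 1 more control peak without CTCF, 22014 bp below (score 58.9), also not found again.

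H3K4me1 in the SMC3 window overlapped the CTCF and cohesin sites at 19.9 and 10.1 kb below the start under both siRNAs. KLF5 had a lone control peak 36.8 kb below the start (20 tags, score 91.0). MYC had a lone peak 30.5 kb above it under RAD21 siRNA (12 tags, score 53.5, FDR 23.1%).

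The NIPBL gene lies on chromosome 5 between SLC1A3 and CPLANE1, is transcribed towards higher coordinates, and had the fewest peaks of the windows under control siRNA (5) and over both siRNAs (11). Under RAD21 siRNA it had 6, and the RAD21 window 5. All of its 11 peaks had their nearer end within 5.9 kb of the position, and the next peak outside the window was H3K4me1 at 51.2 kb. NIPBL protein had no control peak at its own gene. Under RAD21 siRNA it had 1, from 36912534 to 36913852 with its summit 106 bp below the position, 22 tags, a score of 92.4 and an FDR of 10.9%. Its rank was 1887 of 6068. Of NIPBL peaks with scores of 50 to 100 under RAD21 siRNA, 73.0% had no control peak, so such a peak is usual in this list. JUND overlapped it under RAD21 siRNA alone (93 tags, score 170, FDR 6.19%).

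CTCF lay at the NIPBL start under both siRNAs. Its control peak, from 36911786 to 36912306, had 24 tags and a score of 52.03, near the lowest in its list (rank 43365 of 44027). Under RAD21 siRNA the peak from 36910922 to 36912513 had 30 tags, a score of 220 and a fold enrichment of 35.0 (rank 10298 of 32196). The summits lay 955 bp below the position under control siRNA and 962 bp below it under RAD21 siRNA. This CTCF peak was called over 521 bp under control siRNA and over 1592 bp under RAD21 siRNA. Its tag counts thus cover different lengths, and whether the width accounts for the higher count was not tested. It was the only CTCF peak of the windows with more tags under RAD21 siRNA, from a library with 0.346 of the control's tags. A peak of H3K4me1 stood beside it under RAD21 siRNA alone, from 36909480 to 36912257 (72 tags, score 127), while the H3K4me1 peak on the gene side was found under both (157 and 98 tags, scores 225 and 225).

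The only cohesin site of the NIPBL window lay 6.5 kb below the start, where CTCF (92 tags, score 693), SMC3 (71 tags, 346) and RAD21 (60 tags, 317) had control summits within 22 bp. Under RAD21 siRNA CTCF was found there with 32 tags and a score of 170, and neither cohesin subunit was. The NIPBL window thus held 1 control peak of each subunit, and none of either under RAD21 siRNA. Over the lists, 55.9% of RAD21 and 29.9% of SMC3 control peaks with scores of 200 to 400 were found again. Of all control CTCF peaks that overlapped both subunits, 23.4% had CTCF and neither subunit under RAD21 siRNA. With 1 site, this outcome cannot be called particular to the NIPBL gene.

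The CTCF gene lies on chromosome 16 between RIPOR1 and CARMIL2 and is transcribed towards higher coordinates. CTCF protein at its own gene had 5 peaks under each siRNA. The control peaks lay 48.1, 41.2, 18.1 and 15.5 kb below the position and 1.5 kb above it, with scores of 684, 2440, 141, 1003 and 97.7. The first 4 were found again, with scores of 89.4, 1519, 54.9 and 953. The fifth, at the start of the gene itself (21 tags, FDR 5.03%), was not. The extra peak under RAD21 siRNA (13 tags, score 54.1) overlapped the edge of the control peak at 15.5 kb, with a summit 13.7 kb below the position.

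The site 41.2 kb below the CTCF start, from 66111555 to 66113755, was the strongest of all the windows. CTCF had 489 tags there and rank 432 of 44027 under control siRNA, and 147 tags and rank 106 of 32196 under RAD21 siRNA. RAD21 had 223 tags and a score of 987 under control siRNA and 68 tags and a score of 444 under RAD21 siRNA, its strongest peak of the windows under both. SMC3 had 191 and 37 tags, with scores of 667 and 153, the only SMC3 peak of the windows under RAD21 siRNA with an FDR under 5% (1.66%). Each siRNA had 6 targets at this site, but not the same ones. KLF5 (50 tags, score 84.4) and MYC (42 tags, score 86.8) had peaks there with control siRNA only. JUND (42 tags, score 146, FDR 6.19%) and HNF4A (12 tags, score 54.6, FDR 10.4%) had them under RAD21 siRNA alone. Of control peaks with scores of 50 to 100, 4.77% of KLF5 and 17.1% of MYC were found again over their lists. Of RAD21 siRNA peaks, 84.2% of JUND (scores 100 to 200) and 60.3% of HNF4A (50 to 100) had no control peak. Each of these differences is therefore usual in its list.

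The other cohesin sites of the CTCF window kept RAD21 and not SMC3. At 48.1 kb RAD21 had a score of 442 under control siRNA and 67.8 under RAD21 siRNA, where its FDR was 6.38%. At 15.5 kb it had 540 and 65.2, with an FDR of 6.68% under RAD21 siRNA and summits 222 bp apart. SMC3 had control scores of 460 and 426 at these sites and no peak under RAD21 siRNA.

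Between these sites, over a stretch from 66118873 to 66125557, no target had a control peak and 4 had peaks under RAD21 siRNA. H3K4me1 had 3, the strongest from 66120461 to 66123652 with 153 tags, a score of 436 and a fold enrichment of 10.4. Among H3K4me1 peaks under RAD21 siRNA with a score of 400 or more, 3.16% had no control peak. In the classes of the other H3K4me1 peaks here, the shares were 17.6% (scores 100 to 200) and 36.8% (50 to 100). HNF4A (11 tags, score 68.5, FDR 3.20%) and JUND (18 tags, score 57.3, FDR 6.19%) overlapped that peak, with summits 31.8 and 31.9 kb below the position. MYC overlapped the H3K4me1 peak beside it (16 tags, score 71.4, FDR 23.1%). For RAD21 siRNA peaks with scores of 50 to 100, the shares with no control peak were 60.3% for HNF4A, 89.2% for JUND and 55.7% for MYC. Such HNF4A, JUND and MYC peaks are therefore usual in their lists.

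At the CTCF start, H3K4me1 lay on both sides under both siRNAs, with summits 1.4 kb below and 2.1 kb above the position under control siRNA and 1.4 kb below and 2.4 kb above under RAD21 siRNA. Above the position, CTCF (score 97.7) and MYC (20 tags, score 65.7) had peaks under control siRNA. JUND (25 tags, score 92.2) and HNF4A (12 tags, score 66.5) had them there under RAD21 siRNA. Of control peaks with scores of 50 to 100, 20.9% of CTCF and 17.1% of MYC were found again over their lists. Of RAD21 siRNA peaks in that class, 89.2% of JUND and 60.3% of HNF4A had no control peak. MYC had a peak 812 bp below the position under RAD21 siRNA (12 tags, score 53.3, FDR 23.1%). All 5 JUND peaks of the windows had an FDR of 6.19%, and the JUND control list had no peak with an FDR under 5%.

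Over the 4 windows, 10 control CTCF peaks of 16 overlapped both RAD21 and SMC3, beside 63.0% of all control CTCF peaks. They were 2 in the RAD21 window, 4 in that of SMC3, 1 in that of NIPBL and 3 in that of CTCF. Control summits of the 3 proteins lay within 10 to 68 bp of each other (median 26). Under RAD21 siRNA CTCF was found at 10 of the 10, beside 78.1% of such sites in the series. RAD21 was found at 6, beside 57.8%, and SMC3 at 3, beside 37.9%. These series shares cover sites of every score. The control CTCF scores at the 10 sites were 386 to 2440, and 93.6% of all control CTCF peaks with scores of 400 or more were found again. All 3 proteins were found at 2 sites, at 43.2 kb from SMC3 and 41.2 kb from CTCF, beside 33.0%. CTCF stood alone at 3, beside 23.4%, with RAD21 at 4 and with SMC3 at 1.

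At the shared sites, control RAD21 scores were 196 to 987 (median 486) where it was found and 107 to 317 (median 205) where it was not, so the groups overlap. For SMC3 the scores were 164 to 667 (median 300) where found and 140 to 460 (median 346) where not. Of control RAD21 peaks without CTCF, 0 of 3 were found again, beside 9.39% of such peaks in its list, and of SMC3 peaks without CTCF 0 of 1, beside 4.29%, so these counts are near the lists' own shares. CTCF overlapped 10 of 13 control RAD21 peaks, beside 82.4% of the list, and 10 of 11 SMC3 peaks, beside 78.6%. CTCF with neither subunit was found again at 2 of 6 peaks, beside 34.5% of such peaks in its list.

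**Figure D4:**
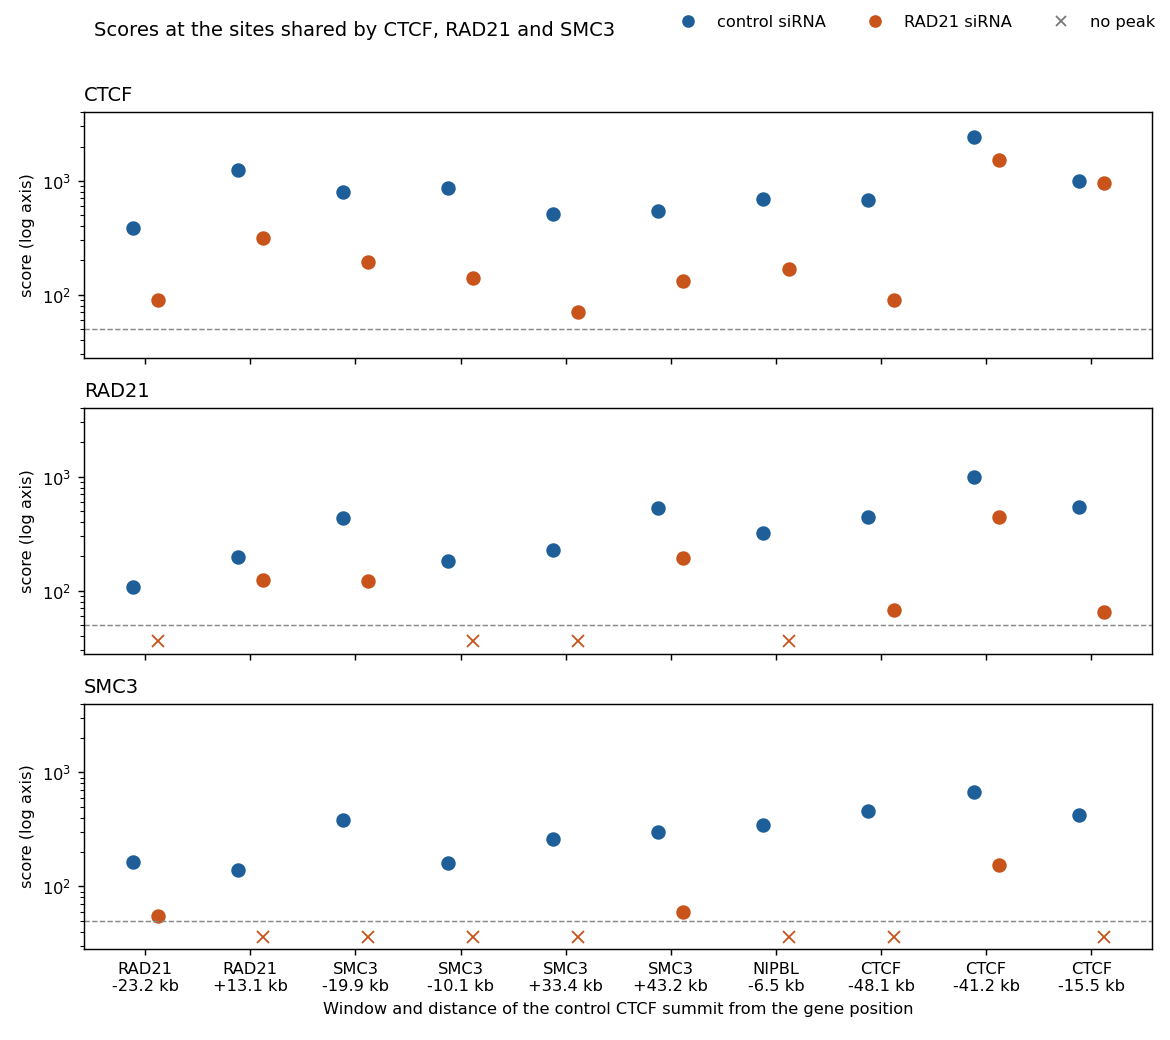
Scores (log axis) of CTCF, RAD21 and SMC3 at the 10 sites they share under control siRNA, placed by window and distance of the CTCF summit from the gene position. Blue circles are control siRNA, orange circles RAD21 siRNA, crosses mark no peak and the dashed line is the lowest score kept, 50; CTCF has an orange circle at all 10 sites, RAD21 at 6 and SMC3 at 3.

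Near the edge of the windows, the outermost peaks inside were CTCF at 38.1 kb from RAD21 (score 72.6), H3K4me1 at 43.8 kb from SMC3 (83.5), RAD21 at 5.9 kb from NIPBL (317) and RAD21 at 47.5 kb from CTCF (442). The nearest outside were CTCF at 52.1 kb from RAD21 (61.6), H3K4me1 at 58.1 kb from SMC3 (184), H3K4me1 at 51.2 kb from NIPBL (67.8) and CTCF at 50.7 kb from the CTCF position (222). These distances run to the nearer end of each peak.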

How the data were processed

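ChIP-seq peaks of 11 targets under control and RAD21 siRNA were analysed in 22 lists, 1 library each; 6 IgG libraries of the 28 had no list used here. The submitters' processing notes name CASAVA 1.4, BWA, MACS 1.4 and the build hg18. Per the file headers, the authors ran MACS 1.4.0rc2 once per library against the IgG library of its siRNA and antibody host, with a p cutoff of 1e-05. The deposited tag counts are whole numbers per peak. The deposited score is −10 × log10 p, the deposited fold enrichment is a ratio over local background, and the deposited FDR is a percent. The FDR was read from the unnamed column, whose number of values under 5 equals that of the labels in all 22 lists. A separate siRNA tag in the labels conflicts with titles and descriptions, from which groups were taken. The MYC title names a rabbit antibody, while the antibody number is, from general knowledge, for one raised in mouse.

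Peaks were assigned to windows by overlap of at least 1 bp, with Python 3.11.15 and SciPy 1.17.1. Summits were taken as the start plus the deposited offset, less 1. Overlap counting was tested on simulated data. Peaks named were those at gene starts, the strongest per target, those of each gene's own protein, those at shared sites and lost control peaks with a score of 100 or more; several weaker ones were added after their values were seen. Members, lists and motifs were chosen with earlier results of these data known. Neighbouring genes come from the GRCh38.p14 RefSeq table by order only. No IgG signal within peaks was analysed here.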

Additional observations from a re-analysis of the deposited data

How the results depend on the processing

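The 10 counts and shares over the windows were recomputed under 12 other settings. RAD21, SMC3, CTCF and H3K4me1 were also taken singly, as settings chosen after seeing the data. Of 94 values in all, 69 stayed near the reported one (counts within 1.5 times, shares inside the interval). Of the 25 that moved, 21 belonged to the 10 counts and shares and not to the targets taken singly. Among the 44 shares, 38 stayed inside their intervals, which are wide for single targets. With 25 kb on each side there were 34 control and 33 RAD21 siRNA peaks and 6 shared sites, 0 of them with CTCF, RAD21 and SMC3 all found under RAD21 siRNA. With 100 kb there were 117 and 92 peaks and 17 shared sites, 4 of them with all found. For peaks with an FDR under 5%, there were 48 control and 36 RAD21 siRNA peaks. Pairs at gene starts then numbered 6 and 7, proteins at their own gene 3 and 2, and sites with all found 1. For scores of at least 100, there were 45 control and 31 RAD21 siRNA peaks. Pairs at starts then numbered 6 and 9, proteins at their own gene 3 and 2, and sites with all found 1. Of the cohesin, loader and CTCF control peaks, 36.1% were found again in that setting (53.7% in the main count). When each pair of lists was trimmed to its strongest peaks in equal number, there were 39 control and 50 RAD21 siRNA peaks. The main count had 57 and 52, so which siRNA had more peaks depended on list length. In the trimmed lists 71.8% of control peaks were found again (57.9% in the main count), shared sites numbered 5 and those with all found 1. With summits within 250 bp, sites with all found numbered 1. Within 500 bp of the position, pairs numbered 4 under control siRNA and 11 under RAD21 siRNA. Peak numbers follow from the window width by construction, and the other causes were not tested. No paired analysis was possible because each target had 1 library per siRNA and no result came from a test. The precision of single peaks is limited by their tags: under RAD21 siRNA, CTCF peaks of the windows held as few as 13 and SMC3 peaks as few as 12.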
